A study of Homo sapiens with 24 samples.

Results

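The regions described here are the 2920 m6A peaks called in pancreatic progenitors (PP) and in no other stage of the differentiation series. They were chosen from the PP peak list by the following rule. A peak had to hold 50 or more input reads, and its span, from first to last base, had to share no base on the same strand with any peak of the human pluripotent stem cell (hPSC), definitive endoderm (DE) and human islet-like organoid (hILO) lists. Of 19014 PP peaks with 50 or more input reads, 2920 met the rule, which is 15.4%, and they lay on 2436 genes. The PP list held 29083 peaks in all and the 6 lists of the series held 228472. The 16094 PP peaks with 50 or more input reads that did overlap a peak of another stage serve as the comparison set and are called the shared PP peaks. The same rule, applied to each of the other stages, gave 3778 hPSC-only, 2885 DE-only and 6492 hILO-only peaks.

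Inside messenger RNA, the modification found most often is N6-methyladenosine (m6A). A nuclear methyltransferase complex deposits it on adenosines of a short consensus sequence, the demethylases FTO and ALKBH5 can remove it, and reader proteins of the YTH family bind it and direct the decay or translation of the transcript. In most human cells the mark is concentrated in long exons and around stop codons. Pancreatic progenitors are the multipotent cells of the embryonic pancreas that express PDX1 and NKX6-1 and give rise to endocrine, ductal and acinar cells.

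All libraries came from the human embryonic stem cell line MEL1 (INSGFP/W in the study's methods, a line with a GFP reporter at the insulin gene), and each population had 2 libraries of m6A-immunoprecipitated fragments (IP) and 2 of the fragments before precipitation (input), 24 libraries in all. The first batch held hPSC, DE, PP and hILO with no genotype given, in which enriched mRNA was precipitated with an antibody from SYSY. The second batch held PP of genotype WT (WT PP) and PP of genotype A5_KO (A5-KO PP), the latter from cells in which ALKBH5 had been disrupted with CRISPR-Cpf1 before differentiation. In the second batch total RNA was precipitated with a Millipore antibody, rRNA was removed from the input fragments, and libraries were made with a SMARTer Stranded kit. Each population had 1 deposited list, called on its libraries together, with no value per library. The log2 enrichment given below is the peak caller's estimate of IP over input for a peak. No spread between replicates could therefore be computed, no test across populations was made, and shares are given with Wilson 95% intervals. These intervals cover counting error only, and peaks of 1 list are not replicates. In bulk RNA, fewer cells of a type and less RNA per cell cannot be told apart.

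Input reads inside peaks summed to 6987612 in PP, the lowest of the 6 lists, and to 28463998 in hILO, the highest. Of 12 pancreatic progenitor markers 9 had a peak in PP, among them PDX1, NKX6-1 and SOX9, whereas PTF1A, CPA1 and GP2 had no PP peak. Per 1000 input reads in peaks, the peaks of these markers held 3.35 in PP, 1.42 in hILO, 0.995 in DE and 0.323 in hPSC. In WT PP all 12 markers had a peak (2.92 per 1000), and in A5-KO PP 11 had one (2.33 per 1000), CPA1 being the exception. Of the hepatocyte-like markers 1 of 12 had a peak in PP, against 10 of 12 in WT PP, 9 of 12 in A5-KO PP and 11 of 12 in hILO. The summed level of these markers was 0.0199 per 1000 in PP, 2.52 per 1000 in WT PP and 3.85 per 1000 in A5-KO PP. In A5-KO PP the single gene FGG held 45854 of the 48977 input reads of this sum. In WT PP FGG held 23641 and TTR 15675 of 48006, so the order of these 2 lists rests on few genes. ALB had no peak in any PP list. Mesenchymal markers had peaks at 6 of 10 genes in PP (0.657 per 1000) and 6 of 10 in WT PP (0.0274 per 1000). Pluripotent cell markers had peaks at 4 of 10 genes in PP (0.623 per 1000) and 3 of 10 in WT PP (0.122 per 1000). L1TD1 held 4104 of the 4355 input reads of this sum in PP, and ZFP42 held 1412 of 2327 in WT PP. POU5F1, NANOG, SOX2, TDGF1, PRDM14 and ZFP42 had no PP peak. On the pluripotent markers lay 2 members, on DNMT3B and L1TD1, neither of which the second batch held. The part of these other cell types in the results below was not tested. A stage without a peak is a stage without a call, since reads outside called peaks were not analysed here.

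The following 25-nt stretches come from peaks on HOX and pancreatic transcription factor genes. They were read from GRCh38 at members within 1 exon that WT PP also called. They are shown because HOX genes had the largest share of PP peaks that met the rule and pancreatic factors define the cells. Capitals mark the GGAC nearest to the peak midpoint or, where the peak held none, the nearest DRACH, meaning A, G or T, then A or G, then A, then C, then A, C or T. A match describes the letters only and does not locate a methylated base.
HOXA2 (CDS, chr7:27101189-27101213, minus strand): aaagccttgaGGACtccgagaaagt
HOXA3 (CDS, chr7:27107967-27107991, minus strand): ccacctacacGGACcttaccggcca
HOXA4 (3'UTR, chr7:27128943-27128967, minus strand): tacctgagaaGGACtacttggtatc
HOXA7 (3'UTR, chr7:27154704-27154728, minus strand): caacttttgtGGACtgagcggccgc
HOXB4 (3'UTR, chr17:48575978-48576002, minus strand): ggggtggcctTGACAactcaggagt
PROX1 (CDS, chr1:213997257-213997281, plus strand): agcagctggaGGACatgcagaaaca
MEIS1 (3'UTR, chr2:66571173-66571197, plus strand): gtcatagccaGGACcacactattgc
GLIS3 (CDS, chr9:4286150-4286174, minus strand): aagccccaggAGACAaatgctcacc
NKX6-1 (3'UTR, chr4:84493072-84493096, minus strand): taggggagagAGACTccggggttga
PDX1 (3'UTR, chr13:27925975-27925999, plus strand): tgcgccttggAAACCaacaactatt
The peaks chosen in ONECUT3 and MEIS2 held neither motif in a window that could be printed.

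The HOX genes, homeobox factors that pattern the body axis, stood out among the gene lists. Of 39 HOX cluster genes 11 had a PP peak with 50 or more input reads, and 10 of these carried a member, against 26.2% of all 9300 genes with such a PP peak. They held 16 members, which were 16 of the 18 PP peaks of that depth on HOX genes. For 9 of the 10 genes, HOXB3 being the exception, no peak was called anywhere on the gene in hPSC, DE or hILO. Among the genes with members were HOXA2, HOXA3, HOXA4, HOXA5, HOXA7, HOXB3, HOXB4, HOXB6 and HOXB9. WT PP had an overlapping peak at 9 of the 16 HOX members and A5-KO PP at 6. Counting second-batch peaks with 10 or more input reads alone, these were 8 and 2, and counting those of p below 1e-05 alone, 5 and 4. Over all members WT PP overlapped 31.8% and A5-KO PP 27.3%. These were 25.99% and 18.2% with second-batch peaks of 10 or more input reads, and 18.8% and 15.3% with those of p below 1e-05. Over all PP peaks with 50 or more input reads, most of them shared PP peaks, WT PP overlapped 64.1%, A5-KO PP 61.9% and either list 72.3%. PP called no peak on HOXC4, HOXC5 or HOXC6, whereas WT PP called 2, 1 and 2 peaks on them. HOXB13, the most posterior gene of cluster B, had a peak in hILO with 926 input reads and none in PP. HOXB7 had 2 peaks in hILO with 3317 input reads together, against 1 in PP with 38, and HOXB8 had 1 peak in hILO with 15 input reads, against 3 in PP with 187.

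The deepest HOX member was in the 3'UTR of HOXB6 (chr17:48595876-48596125), with 1815 input reads, 11388 IP reads and a deposited log2 enrichment of 1.93, with a counting error of 0.04. The A5-KO PP peak over it held 0 input and 64 IP reads, so this overlap is a call without a measurable level. A second HOXB6 member in the CDS had 242 input and 1094 IP reads and a log2 enrichment of 1.00. HOXB4 carried 3 members with 523, 92 and 161 input reads and log2 enrichments of 1.37, 1.27 and 1.09. All 3 were overlapped by a single WT PP peak of 16 input and 64 IP reads, so they do not count as 3 separate recoveries. HOXB3 carried 2 members with log2 enrichments of 3.04 and 1.16, and HOXB9 carried 1 with 319 input reads and 1.76, none of which was found in either list of the second batch.

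In cluster A the members of HOXA2, HOXA3 and HOXA4 were found in both lists of the second batch. The HOXA3 member (chr7:27107859-27108058) had 242 input and 2007 IP reads in PP with a log2 enrichment of 1.94, 775 input and 7247 IP reads in WT PP with 4.81, and 3378 IP reads in A5-KO PP with 4.37. The HOXA2 member had 80 input and 571 IP reads in PP, 79 and 555 in WT PP, while A5-KO PP had 7 and 228. The HOXA4 member rested on 54 input reads in PP and on 1 input read in WT PP, so that its WT PP log2 value of 10.22 cannot be read as a level. The 2 HOXA5 members, with 213 and 177 input reads, were in neither list. The HOXA3, HOXA4 and HOXA7 members and both HOXB6 members share bases with an annotated exon of the opposite strand. Over all members this was true of 250, or 8.56%, against 10.6% of the shared PP peaks. Whether the peak caller counted reads by strand is not stated in the sources used here, so for these peaks reads of a gene and its antisense partner may be mixed.

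Pancreatic transcription factors were the list closest to the label of the cells. Of 35 genes 28 had a PP peak with 50 or more input reads, and 13 of these carried 21 members, which were 23.9% (16.2 to 33.7%) of the 88 PP peaks of that depth on these genes. The background share of PP peaks that met the rule was 15.4%. Each of the 13 genes also had a peak in at least 1 other stage, so here the members were further sites on genes already called elsewhere. WT PP overlapped 12 of the 21 and A5-KO PP 11, or 12 and 8 with second-batch peaks of 10 or more input reads and 7 and 6 with those of p below 1e-05. Over all members the shares were 31.8% and 27.3%, or 25.99% and 18.2%, and 18.8% and 15.3%, under the same limits. For the pancreatic factors they were 57.1% (36.5 to 75.5%) and 52.4% (32.4 to 71.7%) without a limit, and the difference was not tested.

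The 3'UTR member of NKX6-1, the homeobox gene that marks progenitors able to form beta cells, was the deepest of those found in both lists of the second batch apart from MEIS2. It spanned chr4:84492962-84493186 with 1849 input reads, 10005 IP reads and a log2 enrichment of 0.96, with a counting error of 0.04. WT PP had 115 input and 641 IP reads there with 4.28, and A5-KO PP 417 and 553 with 1.61. It lay 50 nt from a peak of another stage on the same gene. The 3'UTR member of PDX1, the gene required for pancreas formation, had 150 input and 528 IP reads with 1.28, and lay 100 nt from the nearest peak of another stage. WT PP had 675 input and 1724 IP reads there, and A5-KO PP had 435 and 1320.

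Other pancreatic factors had members that the second batch did not hold. SOX9, which keeps progenitors multipotent, had a CDS member of 504 input and 2868 IP reads with a log2 enrichment of 1.15, and GATA6 and HNF4A had members of 310 and 52 input reads. Neither WT PP nor A5-KO PP called a peak at these 3. GATA4, an endodermal zinc finger factor, had a 5'UTR member of 390 input reads found in both lists and a CDS member of 1963 input reads found in neither. The 2 members of ONECUT1, which acts upstream of NEUROG3, were in A5-KO PP but not in WT PP. MEIS1, a partner of HOX and PBX proteins, had a 3'UTR member of 216 input reads and 2.52, found in WT PP. MEIS2 carried 3 members, the deepest with 2292 input and 13308 IP reads and a log2 enrichment of 2.76. The WT PP peak over it held 145 input and 331 IP reads, and the A5-KO PP peak 1 input and 123 IP reads. The CDS member of GLIS3 (170 input reads) and the 3'UTR member of ONECUT3 (452 input reads) were in both lists. PROX1, which is needed for the growth of the early pancreas, carried 5 members in a single long coding exon of the gene, with 55 to 87 input reads and log2 enrichments of 1.02 to 1.51, and 4 of these 5 were in WT PP. Of these 4, 3 were overlapped by the same WT PP peak of 78 input and 171 IP reads.

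**Figure D1:**
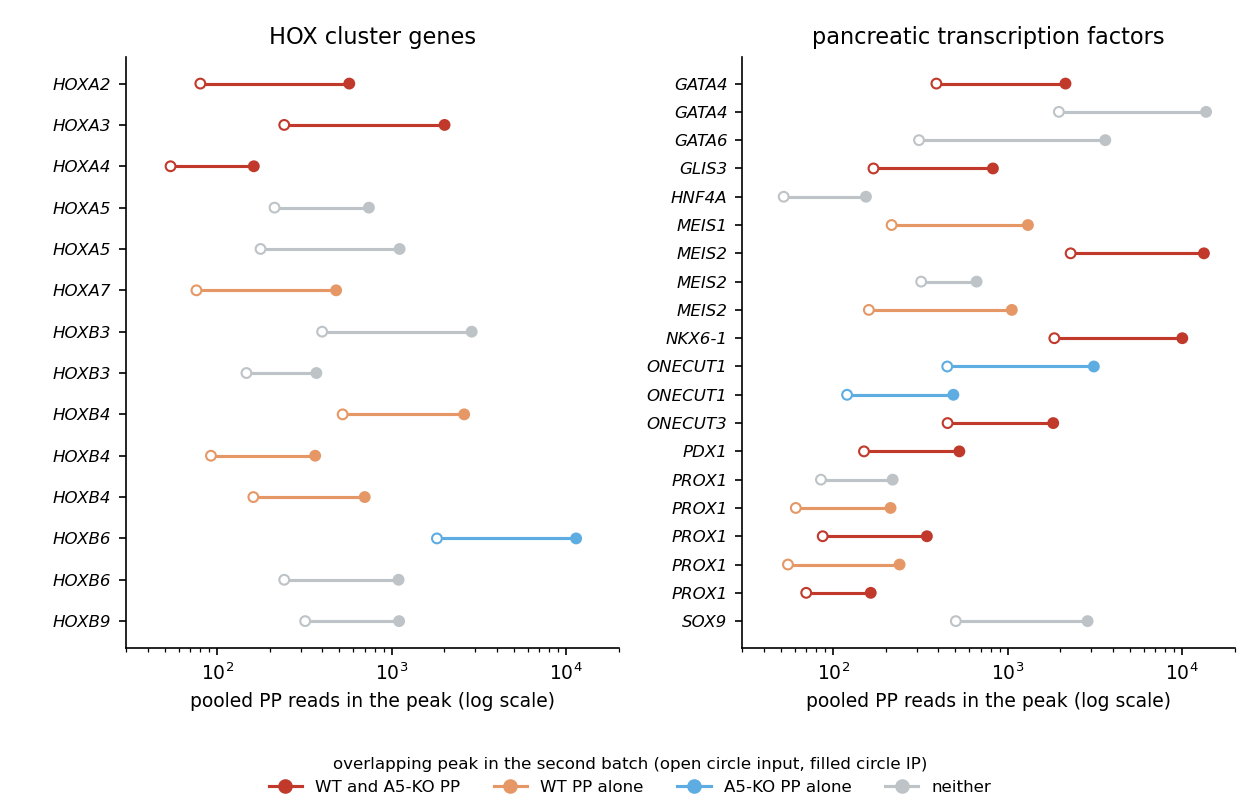
Pooled PP reads (log axis) in each member on the HOX cluster genes reported here (left, 14 members) and on pancreatic transcription factor genes (right, 20 members); open circles are input, filled circles IP, and the colour gives the list of the second batch with an overlapping peak. The HOXA2, HOXA3 and HOXA4 members were in both lists, and the members with the most input reads, HOXB6 (1815) and MEIS2 (2292), differed in that HOXB6 was in A5-KO PP alone and MEIS2 in both, where the A5-KO PP peaks held 0 and 1 input reads.

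The Notch pathway, which holds progenitors back from endocrine fate, had members on 11 of the 21 genes with a PP peak of that depth, against 26.2% of all genes, and on 7 genes when members needed 100 input reads. Its 15 members were 30.6% (19.5 to 44.5%) of the 49 PP peaks on these genes, against 15.4% of all such peaks. WT PP overlapped 11 of the 15, against 31.8% of all members, or 9 with second-batch peaks of 10 or more input reads and 9 with those of p below 1e-05. They included the receptors NOTCH1 (404 input reads, log2 enrichment 2.05), NOTCH2 (3 members of 118 to 526 input reads) and NOTCH4 (83 input reads), the ligand gene DLL1 (73 input reads, 0.60), and the ubiquitin ligase gene MIB1 with 2 members. Among the targets of the pathway HEY1 had 2 members, of 452 and 514 input reads, HEY2 had 1 over several exons, and NRARP, a feedback inhibitor, had a 3'UTR member of 51 input reads with 2.83. The remaining 3 genes were DTX2, DTX4 and MAML3. The NOTCH1, DLL1 and DTX4 members and 1 of the NOTCH2 members were in neither list of the second batch.

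Of 24 endocrine transcription factors and hormones 5 had a PP peak of that depth, and the only member among their 8 peaks was in the 3'UTR of CHGA, a secretory granule protein, with 619 input and 2511 IP reads and 1.99. It was in neither list of the second batch. The retinoic acid pathway, which was stimulated in this protocol, had members on 4 of 14 genes, and 7 of its 40 PP peaks, or 17.5% (8.75 to 31.9%), were members. This is close to the background of 26.2% of genes and 15.4% of peaks. Among these genes were ALDH1A2, which makes retinoic acid (3 members, of 172, 74 and 57 input reads, none in WT PP), the coactivator gene NCOA1 (1365 input reads, 2.68) and the corepressor gene NCOR1. The Hedgehog pathway, which was inhibited in this protocol, had members on 4 of 12 genes, and its 7 members were 23.3% (11.8 to 40.9%) of 30 PP peaks, an interval that holds the background of 15.4%. KIF7 carried 4, and GLI3, GPC3 and BOC 1 each. Of these 7 members 1, on the coreceptor gene BOC, was in WT PP and none in A5-KO PP, against 31.8% and 27.3% of all members.

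Collagen, laminin and integrin genes had the second largest share of PP peaks that met the rule among the 14 lists. Of their 77 PP peaks with 50 or more input reads 32 were members, or 41.6% (31.2 to 52.7%), against 15.4% of all such peaks. Of these members 23 of 32 ran over several exons, against 34.3% of all members and 2 of the 16 HOX members, and 26 had their midpoint in the CDS. WT PP overlapped 4 of the 32, against 31.8% of all members, and the difference from the HOX members was not tested. COL3A1 and COL4A2 carried 6 each and COL4A1 carried 5. The COL3A1 members, with 72 to 417 input reads, all ran over several exons and none was in either list of the second batch. The deepest on this list were on LAMC1 (3479 input reads, 1.52), COL2A1 (3167 input reads, 1.89) and COL18A1 (1579 input reads, 1.47). COL3A1 and 3 other mesenchymal marker genes, COL1A2, LUM and ACTA2, held 11 members, of which WT PP overlapped 1 and A5-KO PP overlapped 2. The summed level of the 10 mesenchymal markers was 0.657 per 1000 input reads in PP, against 0.0274 for WT PP and 0.322 for A5-KO PP.

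Of the other lists, FGF, EGF and RAS-MAPK genes had members on 13 of 25 genes, and 26.9% (16.8 to 40.3%) of their 52 PP peaks were members, against 15.4% of all such peaks. Among these members, SPRY2, a feedback inhibitor, had the deepest (5787 input and 37664 IP reads, 2.73), followed by SPRY1 (1516 input reads, 2.73) and MAP2K1 (1376 input reads, 1.64). SPRY1 and SPRY2 were in both lists of the second batch. In the lists that follow, the intervals of the peak shares held the background of 15.4%. Hippo pathway genes had members on 8 of 19 genes (18.9% of 74 peaks), among them the transcription factor gene TEAD2, whose 2 members (328 and 1428 input reads) were on a gene with no peak in the other 3 stages. Wnt pathway genes had members on 11 of 29 genes (17.2% of 64 peaks), with TCF7L1 (1312 input reads, 2.50), LRP5 and FZD6 among the deepest. TGF-beta, BMP and Nodal genes had members on 6 of 26 genes (12.96% of 54 peaks), epithelial junction genes on 6 of 27 (14.3% of 70 peaks) and m6A writers, erasers and readers on 5 of 23 (9.09% of 66 peaks). The share of all genes with a member was 26.2%. The latter included VIRMA, a subunit of the methyltransferase complex, and the readers YTHDF3 and FXR1. Chromatin regulators had members on 26 of 50 genes, but these long genes held 248 PP peaks, and their 32 members were 12.9% (9.29 to 17.7%) of them. The share of genes with a member rose with the number of PP peaks on the gene, from 17.9% of genes with 1 peak to 71.4% of genes with 10 or more, so the share of peaks is the nearer measure for such lists.

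Of the 2920 members 326, or 11.2%, lay on 298 genes with no peak in hPSC, DE or hILO, of which 151 were protein-coding and 108 lncRNA genes. The other members were further peaks on genes already called elsewhere, 1901 of them (65.1%) on genes called in all 3 other stages. Where the gene had a peak of another stage, the nearest lay at a median exonic distance of 325 nt (quartiles 100 and 1025 nt, 2574 members), and 737 members lay within 100 nt. Input reads over the peaks were summed for each of the 1554 genes that carried a member and had peaks in all 4 stages. The medians were 671 in PP, 578 in DE, 429 in hPSC and 1310 in hILO. These genes were chosen for carrying a member, and the PP sum includes the reads of the members. Peaks per gene had a median of 4 in PP and 3 in each of the other stages. The PP value is thus in part set by the rule, so these medians cannot compare the level of the genes between stages. Most genes held 1 member (2059 genes), and 8 genes held 5 or more. F5, which encodes coagulation factor V, held the most, 7, with 105 to 1183 input reads, of which 5 were in WT PP, 3 of them under the same WT PP peak of 1222 input and 5329 IP reads. ZNF462 held 6, of which 4 were in WT PP. CEP131 and CIT held 5 each, none of which was in either list of the second batch, and ANKRD11 and COL27A1 held 4 each.

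The members were placed differently along the transcript from the shared PP peaks. Of 1943 members whose midpoint could be placed on the longest coding isoform, 14.2% (12.7 to 15.8%) were in the 5'UTR, 63.3% (61.1 to 65.4%) in the CDS and 22.5% (20.7 to 24.4%) in the 3'UTR. The shared PP peaks had 4.83%, 55.6% and 39.6% in these regions. Within 200 nt of the stop codon lay 8.23% (7.09 to 9.54%) of the members and 22.0% (21.3 to 22.7%) of the shared PP peaks. The 3'UTR share and the share at the stop codon were also lower than in the hPSC-only (31.6% and 13.04%), DE-only (47.2% and 15.9%) and hILO-only peaks (40.6% and 14.8%), with intervals that did not overlap. With peaks within 1 exon alone, the members' shares were 33.99% in the 3'UTR and 11.4% at the stop codon. They were then still the lowest of the 5 sets, but their intervals overlapped those of the hPSC-only peaks (36.6% and 14.1%), whereas the DE-only, hILO-only and shared PP peaks had 58.3%, 59.9% and 48.6% in the 3'UTR. The 5'UTR share was not particular to PP, since it was 15.2% (13.8 to 16.7%) in the hPSC-only peaks. The 16 HOX members had another placement, with 8 in the 3'UTR, 5 in the CDS and none in the 5'UTR.

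**Figure D2:**
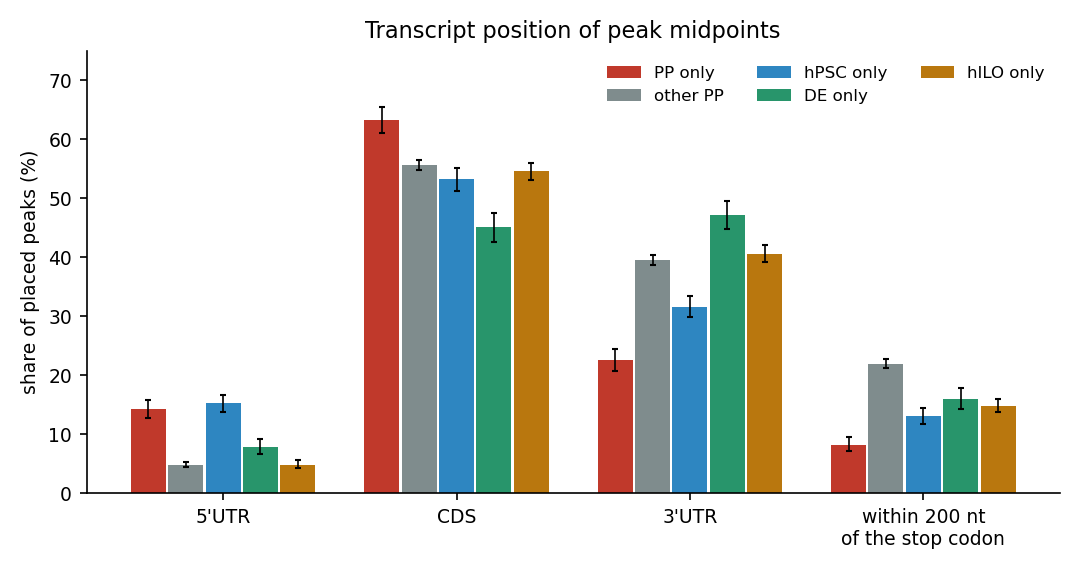
Share of placed peak midpoints (%) in each part of the longest coding isoform (5'UTR, CDS, 3'UTR) and at most 200 nt from the stop codon, for the members (PP only), the shared PP peaks (other PP) and the peaks found only in hPSC, DE or hILO; bars end at the share and lines give Wilson 95% intervals. The members had the lowest 3'UTR share (22.5%) and the lowest share at the stop codon (8.23%) of these 5 sets; with peaks within 1 exon alone the intervals of the members and the hPSC-only peaks overlap.

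Counted in steps of 200 nt, the shared PP peaks rose to 14.1% in the step just after the stop codon, while the members stayed at 4.27% there and had their highest share, 6.59%, between 1400 and 1200 nt before it. In the last exon lay 30.1% of the placed members against 57.5% of the shared PP peaks, in an internal exon 48.4% against 36.3%, and in the first exon 21.5% against 6.23%. The exon that held the midpoint had a median length of 416 nt for the members and 1693 nt for the shared PP peaks. It was 1095 nt for the hPSC-only, 1395 nt for the DE-only and 726 nt for the hILO-only peaks.

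**Figure D3:**
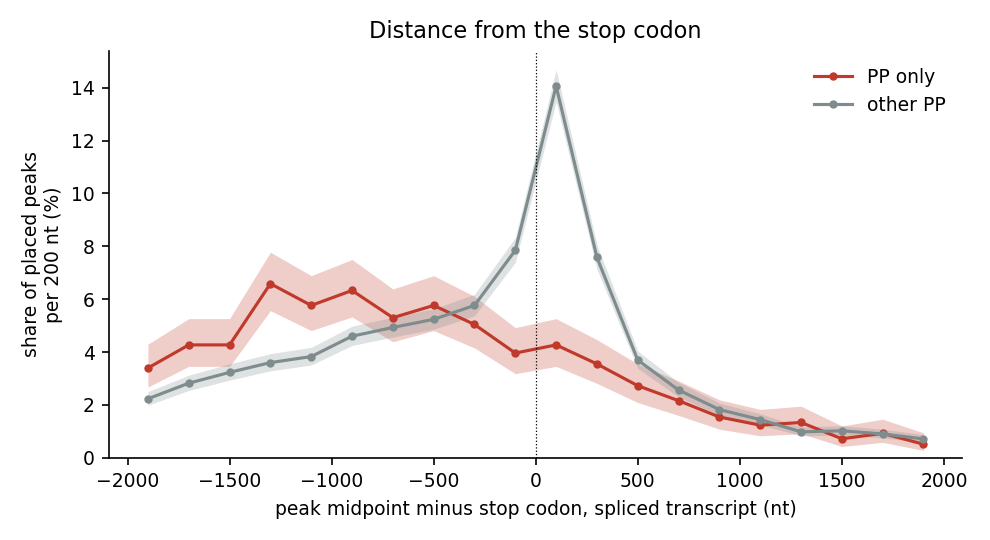
Share of placed peaks (%) in each 200-nt step of distance from the stop codon along the spliced transcript (nt, negative before the stop codon), for the members (PP only) and the shared PP peaks (other PP); bands are Wilson 95% intervals. The shared PP peaks reach 14.1% just after the stop codon, where the members stand at 4.27%.

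The members were also shorter and richer in G and C than the shared PP peaks. Their exonic length had a median of 75 nt against 175 nt for the shared PP peaks, and 35.99% were of 50 nt or less against 11.1%. More of them ran over several exons (34.3% against 23.6%). In the hILO-only peaks this share was higher still, at 38.6%, and in the hPSC-only and DE-only peaks it was 19.3% and 23.9%. GC content within 50 nt of the midpoint had a median of 52.5% against 46.5%. Neither shortness nor high GC was particular to PP, since the hPSC-only peaks had a median GC of 56.4%, and 26.8% of them and 32.3% of the DE-only peaks were of 50 nt or less. Input reads differed little, with medians of 156 and 165, as did the log2 enrichment, with medians of 1.47 and 1.57. Read the other way, 37.0% of PP peaks of 50 nt or less met the rule and 4.69% of those over 150 nt, and a longer peak has more bases that can overlap a peak of another list. Likewise 10.1% of peaks with under 40% GC and 25.2% of those with 60% GC or more met the rule. The deposited log2 enrichment and the plain IP to input ratio of a peak differed by an amount that moved with GC, unequally between the lists. From under 40% to 60% GC or more, the deposited value minus the log2 ratio of the deposited counts moved by -1.16 in PP, -0.18 in hPSC, -0.67 in DE and -0.46 in hILO (peaks with 200 or more input reads). The part of this shift in the choice of members was not tested.

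Consensus motifs were searched on the transcript strand within 50 nt of the midpoint, in windows that could be made for 2847 of the 2920 members. GGAC was in 39.4% (37.7 to 41.3%) of the members and in 39.3% (38.5 to 40.1%) of the shared PP peaks, and over all PP peaks the share was 38.9%. On the opposite strand, GGAC was in 27.3% (25.7 to 28.9%) of the members and 22.3% (21.6 to 22.9%) of the shared PP peaks. GGACT, which contains GGAC, was in 11.2% (10.1 to 12.4%) of the members and 14.2% (13.6 to 14.7%) of the shared PP peaks, with 13.7% over all PP peaks. DRACH, which takes in GGACT, was in 86.3% (84.95 to 87.5%) against 90.6% (90.2 to 91.1%), with 89.9% over all PP peaks. On the opposite strand DRACH was in 77.6% and 76.9%. For GGACT and DRACH the members thus stood below the shared PP peaks, with intervals that did not overlap, and for GGAC the intervals overlapped. The lower DRACH share was not particular to PP, with 84.8% in the hPSC-only, 89.0% in the DE-only and 88.2% in the hILO-only peaks. For GGACT these sets had 13.7%, 12.6% and 9.38%.

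The second batch did not enter the choice of members, so recovery there is not fixed by the rule. WT PP had an overlapping peak at 929 members, or 31.8% (30.1 to 33.5%), against 70.0% (69.2 to 70.7%) of the shared PP peaks and 64.1% of both together. A5-KO PP overlapped 797, or 27.3% (25.7 to 28.9%), against 68.2% (67.4 to 68.9%). With second-batch peaks of p below 1e-05 alone, WT PP overlapped 18.8% of the members and 43.6% of the shared PP peaks, and A5-KO PP 15.3% and 42.3%. With second-batch peaks of 10 or more input reads, A5-KO PP overlapped 18.2% and 51.5%. Both lists held 547 members, WT PP alone 382, A5-KO PP alone 250, and neither 1741, or 59.6% (57.8 to 61.4%). Joint overlaps such as those at HOXB4 and PROX1 occurred at 26 WT PP peaks, which lay over 2 or more members each, 56 members in all. Of the 2575 members whose gene had any WT PP peak, 36.04% were recovered, so the gene itself was called in WT PP for most members that were not.

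Of the peaks found only in another stage, those of hPSC were recovered in WT PP at a higher share than the members and those of DE and hILO at a lower one. The share was 34.3% (32.8 to 35.9%) of the hPSC-only peaks, 29.6% (28.0 to 31.3%) of the DE-only peaks and 24.3% (23.3 to 25.4%) of the hILO-only peaks; the intervals of the members overlapped those of the hPSC-only and DE-only peaks. In A5-KO PP the shares were 29.2%, 30.8% and 26.4%. Over all peaks with 50 or more input reads of these 3 lists, called in any number of stages, WT PP overlapped 62.4% of the hPSC, 62.7% of the DE and 56.9% of the hILO peaks. The order depended on the gene and on the list. On genes without a peak in the other stages, WT PP overlapped 30.7% (25.9 to 35.9%) of the 326 members against 19.4% (16.8 to 22.4%) of the hPSC-only, 19.6% (16.8 to 22.6%) of the DE-only and 20.99% (19.1 to 23.0%) of the hILO-only peaks on such genes. A5-KO PP gave another order, with 29.1% (24.5 to 34.3%) of the members, 22.4% (19.6 to 25.5%) of the hPSC-only, 31.0% (27.7 to 34.5%) of the DE-only and 31.1% (28.9 to 33.4%) of the hILO-only peaks. On genes with peaks in all 3 other stages the members stood at 32.0% (29.9 to 34.1%), below the hPSC-only peaks at 42.3% (40.1 to 44.6%) and the DE-only peaks at 35.3% (32.7 to 38.0%, overlapping intervals), and above the hILO-only peaks at 24.7% (23.2 to 26.2%). In A5-KO PP these shares were 26.04%, 32.7%, 31.3% and 21.4% in the same order. The second batch differed from the first in RNA, antibody and library kit. The summed levels of the hepatocyte-like, mesenchymal and pluripotent markers also differed, the pluripotent level in PP resting mainly on L1TD1. The part of these differences in the recovery cannot be told apart.

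**Figure D4:**
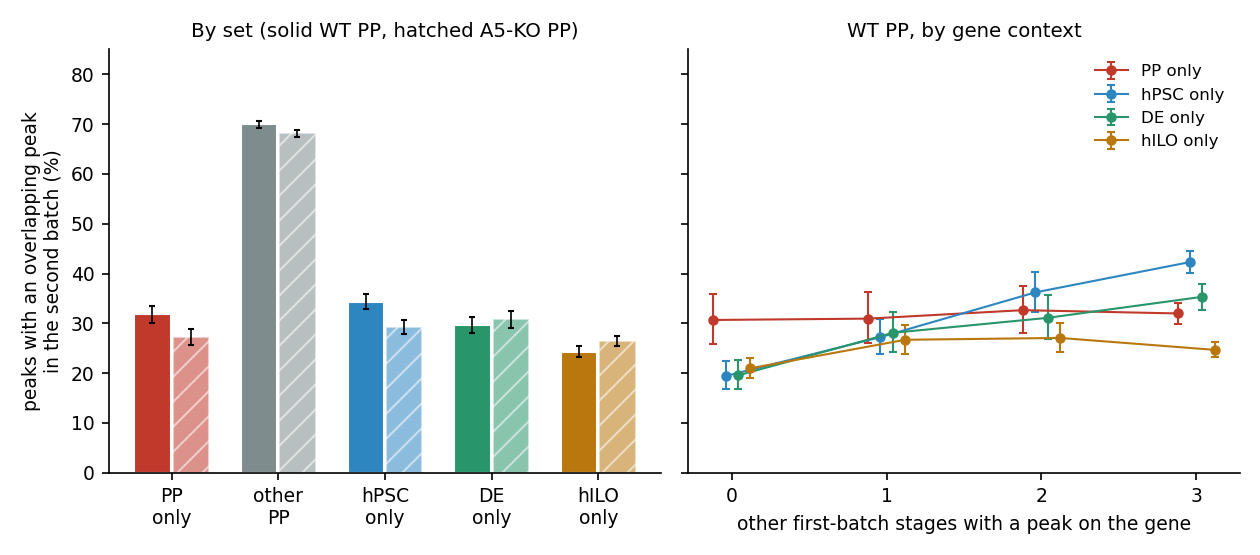
Left, share of peaks (%) with an overlapping peak in WT PP (solid) or A5-KO PP (hatched) for the members (PP only), the shared PP peaks (other PP) and the peaks found only in hPSC, DE or hILO; right, the WT PP share by how many of the other first-batch stages had a peak on the same gene. Lines are Wilson 95% intervals; on genes called in no other stage the members stand at 30.7% and the 3 other sets between 19.4% and 20.99% in WT PP, whereas in A5-KO PP, not drawn by gene, the members had 29.1% and the DE-only and hILO-only peaks 31.0% and 31.1%.

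Recovery varied with the form and place of the member more than with its depth. It was 33.1% for members with 50 to 99 input reads and 29.5% for those with 500 or more, with overlapping intervals (30.2 to 36.2% and 25.3 to 34.2%). It rose from 28.4% (24.5 to 32.7%) at a log2 enrichment under 1 to 35.1% (31.6 to 38.8%) at 2 or more, again with overlapping intervals. By exonic length it was 27.9% (25.3 to 30.7%) at 50 nt or less and 41.4% (37.0 to 45.9%) over 150 nt. In the last exon it was 44.6% (40.6 to 48.7%), in internal exons 28.7% and in first exons 29.98%. In the 3'UTR it was 42.3% (37.8 to 47.0%), in the CDS 31.9% and in the 5'UTR 28.6%. Members within 1 exon were recovered in 35.6% (33.5 to 37.8%) and those over several exons in 24.5% (21.9 to 27.2%). In each of these bins the shared PP peaks were recovered more often. The members that WT PP recovered had a median exon length of 1130 nt against 248 nt for the others, held DRACH in 89.5% against 84.7% and had 50.5% GC against 54.5%.

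**Figure D5:**
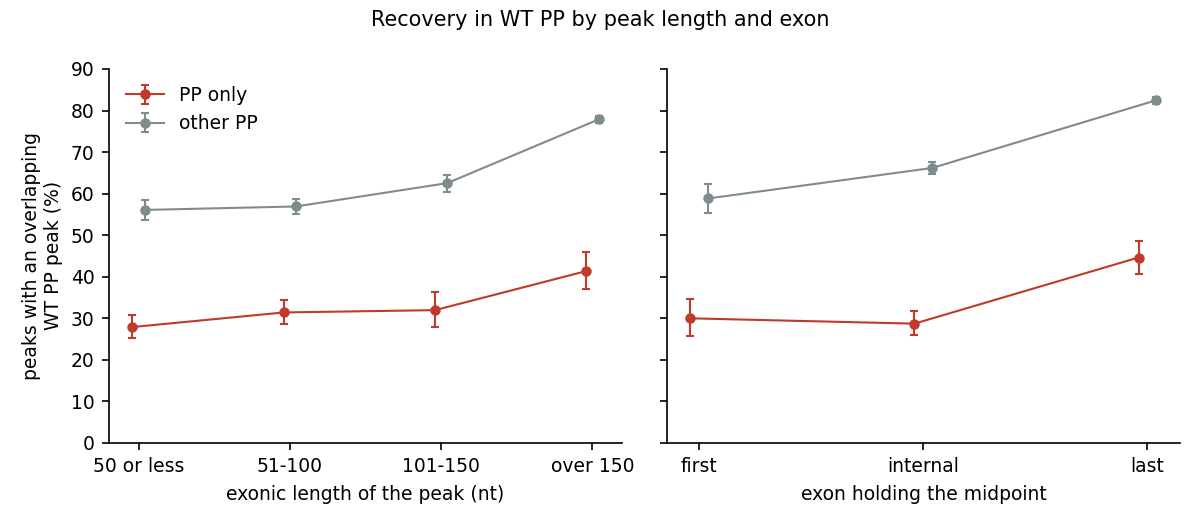
Share of peaks (%) with an overlapping WT PP peak by exonic length of the peak (left, nt) and by the exon that holds the midpoint (right), for the members (PP only) and the shared PP peaks (other PP), with Wilson 95% intervals. Recovery of the members rises from 27.9% at 50 nt or less to 41.4% over 150 nt and stands at 44.6% in last exons, below the shared PP peaks at every point.

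At the 929 members found in WT PP the deposited log2 enrichment had a median of 1.51 in PP and 3.76 in WT PP, and it was higher in WT PP at 86.1% of them. At the 797 members found in A5-KO PP the medians were 1.55 and 4.19. The shared PP peaks showed the same shift (1.60 and 3.83 in WT PP), and the lists were normalized separately, so these values do not compare methylation between batches. The overlapping peak held no input read at 8.61% of the members found in WT PP and at 22.5% of those found in A5-KO PP.

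Among members within 1 exon and with 100 or more input reads, the 10 with the highest log2 enrichment ran from 3.06 to 3.96, and 6 of them were in WT PP. Of all members within 1 exon WT PP overlapped 35.6%. The highest was on BAMBI, a decoy receptor of TGF-beta signalling (133 input and 1928 IP reads in PP, 2847 and 7346 in WT PP). Others were the ubiquitin ligase gene FBXW7 (3.31), BAZ1A (3.27), TMEM64 (3.21), UBE2A (3.19), PLK2 (3.15), ETAA1 (3.12), NT5C2 (3.08) and MTMR9 (3.06). All 10 genes had a peak in at least 2 other stages.

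The 10 members with the most input reads had 5344 to 19071, and 7 of them ran over several exons. Among their genes were APP, COLGALT2, SLC25A25-AS1, HOOK3, the pseudogene STIP1P3, PAPPA, SPRY2, ANP32B and LINC00461. Of the 10, HOOK3 and SPRY2 were in WT PP, against 31.8% of all members. The APP member covered 169 exonic nt within a span of 28106 nt and had 80691 IP reads. STIP1P3 is a processed pseudogene, so its reads cannot be told from those of its parent gene with certainty. Ranked instead by input reads among the members in neither list of the second batch, HDAC5 (5342), PPIB (4626), BLTP2 (4123) and PDIA4 (4008) were among the leading 10 with APP, COLGALT2, STIP1P3, ANP32B and LINC00461, and 6 of the 10 ran over several exons. The members with the most WT PP input reads over the overlapping peaks were on DOK4, FAM234A, MARF1, SIK1, CTDP1, DAP-DT, PIGA, CCNL2, PAK5 and GATA4. DOK4 had 229 input reads in PP and 44254 in WT PP, where 181298 IP reads gave a log2 enrichment of 3.99, and it was not in A5-KO PP. SIK1, a kinase gene with no peak in hPSC, DE or hILO, had 391 input reads in PP, 14036 in WT PP, 1574 in A5-KO PP, and its log2 enrichments were 1.79, 1.07 and 1.47.

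The members at the edge of the rule were as follows. The 143 members with 50 to 54 input reads had a median log2 enrichment of 1.45, and 37 of them (25.9%) were in WT PP. The 149 peaks with 45 to 49 input reads that also overlapped no other stage had 1.496 and 53 (35.6%). The 370 members within 25 exonic nt of a peak of another stage had 1.42 and 160 (43.2%) in WT PP, and the 255 PP peaks that overlapped another stage by 25 nt or less had 1.45 and 127 (49.8%).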

How the data were processed

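m6A-seq libraries of 6 cell populations were analysed from the peak lists that the authors deposited, 1 for each population. After trimming with fastp, the authors mapped reads to GRCh38 using HISAT2 (1 alignment for each read) and ran the peak caller exomePeak2, whose version is not given in the sources used here. The deposited columns are IP and input read counts, pooled for each population (sums or means, not stated), the log2 enrichment from exomePeak2, and its p-value before and after adjustment. The thresholds given by the study are an IP/input of 1.5 and a p of 1e-05, whereas the deposited lists hold peaks with an adjusted p below 0.05. Input counts within peaks are the only measure of depth in these files.

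Spans were compared on the same strand, and introns were removed with GENCODE release 44, in which 99.1% of the peaks matched a gene on their strand. Peak midpoints were placed on the longest coding isoform of the gene. Motifs were searched in exonic windows of 50 nt on either side of the midpoint. Counting errors on the log2 scale follow from both pooled counts, each with 0.5 added, and assume sums. Intervals are Wilson intervals at 95%, computed with scipy 1.17.1, with pandas 2.3.3 and numpy 2.4.6 under Python 3.11.15. The overlap code was tested on simulated spans. Alternatives to the overlap rule, input minimum, thresholds and windows were tried. The member regions and the gene lists were chosen with earlier results of these data known. Named were all list genes of the pancreatic, endocrine, Notch, retinoic acid, HOX and Hedgehog lists that carry a member, of the other lists the 3 genes with the most input reads, and the 10 members or genes leading by log2 enrichment (within 1 exon, 100 or more input reads), input reads, number of members, WT PP input reads, and input reads among members in neither list of the second batch. The pluripotent marker genes DNMT3B and L1TD1, the mesenchymal markers COL1A2, LUM and ACTA2, the HOX genes without a member and the lncRNA genes of the closing section were named after their values were seen. Splits of recovery by exon, region, gene context and distance, and of the members by GC, were added after the data were seen. A few genes that these rules name are not reported here, but stay in the counts.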

Additional observations from a re-analysis of the deposited data

How the results depend on the processing

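Of 98 recomputed values 74 kept within the limits set for a change. WT PP recovery of the members stayed below that of the shared PP peaks and the hPSC-only peaks and above that of the DE-only and hILO-only peaks in 13 of 13 alternatives. These alternatives refilter the same lists, so they are not independent of each other. The intervals of the members overlapped those of the hPSC-only and DE-only peaks in the main setting. With second-batch peaks of p below 1e-05 the members had 18.8% and the hPSC-only peaks 19.2%. The order also changed with gene context, as given above. The number of members fell to 1395 with p below 1e-10, and Notch genes with a member fell to 7 with 100 input reads. With peaks within 1 exon alone, recovery was 35.6% for WT PP, 30.1% for A5-KO PP and 44.5% for either, the regions held 12.7% (5'UTR), 53.3% (CDS) and 33.99% (3'UTR), 11.4% lay near the stop codon, and the median log2 enrichment was 1.43. With the other lists widened by 100 nt, recovery was 28.6%, 24.96% and 37.1%. Calling a peak shared only where another stage covered more than 50% of it gave 3874 members, of which WT PP overlapped 38.7%. Requiring more than 50% of the member to be covered in the second batch gave 26.4% for WT PP and 22.4% for A5-KO PP, second lists of 10 or more input reads 25.99% and 18.2%, and second lists of p below 1e-05 18.8% and 15.3%. Any overlap in place of the midpoint gave 22.0%, 69.3% and 20.7% for the regions. Windows of 51 nt gave GGAC in 21.9% and DRACH in 62.4%. No paired analysis was possible because each list pools the 2 libraries of a group. The edgeR model, the replicate block and leaving out each replicate were therefore not run, and depth within single libraries limits what can be said of any 1 peak.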

Other observations

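Among lncRNA genes, HOXA-AS3, which is transcribed across the HOXA cluster on the strand opposite to the HOXA genes, held the most members together with PPP3CB-AS1, 4 each. The HOXA-AS3 members had 138 to 432 input reads and log2 enrichments of 0.88 to 1.62, the gene had no peak in the other stages, and none of the 4 was in WT PP or A5-KO PP. LINC00543, which also had no peak in the other stages, held 3 members of 66 to 631 input reads, of which WT PP held 2 and A5-KO PP 3. UNC5C-AS1 held 3 members in neither list. Of the 118 members on lncRNA genes without a peak in the other stages, 39 overlapped a WT PP peak, 35 an A5-KO PP peak, and 26 shared bases with an exon of the opposite strand. On protein-coding genes of this kind 51 of 167 overlapped a WT PP peak, 51 an A5-KO PP peak, and 13 shared such bases. Over all members the shares were 31.8%, 27.3% and 8.56%.

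Among these protein-coding genes MITF, a transcription factor of pigment cells, had a CDS member of 1061 input and 2244 IP reads (log2 enrichment 1.01) found in both lists of the second batch. CTSE, an aspartic protease gene of the foregut, had a 3'UTR member of 722 input and 3760 IP reads (2.47) found in neither. ZNF365 had a member of 5334 input reads over several exons (1.71), found in A5-KO PP. These genes were chosen after their values were seen.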
